A study of Rattus norvegicus with 18 samples.

Results

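The subunit genes of the NMDA receptor were followed in the prefrontal cortex (PFC) of rat pups at P14. The members were the 7 genes whose symbols are Grin1, Grin2a, Grin2b, Grin2c, Grin2d, Grin3a and Grin3b, taken from the 32623 genes listed for each pup. Their identifiers in the tables are ENSRNOG00000011726 (Grin1), ENSRNOG00000033942 (Grin2a), ENSRNOG00000008766 (Grin2b), ENSRNOG00000003280 (Grin2c), ENSRNOG00000021063 (Grin2d), ENSRNOG00000005723 (Grin3a) and ENSRNOG00000012562 (Grin3b). All 7 passed the filter on low counts, which left 15703 genes for testing. Every pup was a Sprague Dawley rat and RNA was isolated from the whole dissected PFC, with 6 pups in each of 3 groups. The saline (SAL) pups came from control dams. The post-natal oxycodone (PNO) pups were nursed by dams gavaged with oxycodone (oxy) at 15 mg/kg/day from parturition until weaning. The in utero oxycodone (IUO) pups had dams that began on 10 mg/kg/day, reached 15 mg/kg/day before mating and stayed on it through gestation until weaning, so that IUO pups had post-natal exposure as well. The labels give neither the litter nor the sex of a pup, so a test over pups measures the spread between these 18 samples, and pups of 1 litter cannot be told from pups of several.

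The NMDA receptor is a glutamate-gated channel that passes calcium. In its typical form it passes current when glutamate and glycine or D-serine are bound and the membrane is depolarized. Each channel combines the obligatory GluN1 subunit, made by Grin1, with GluN2 subunits, made by Grin2a to Grin2d, or GluN3 subunits, made by Grin3a and Grin3b. In the forebrain of rodents GluN2B prevails around birth and GluN2A rises over the first post-natal weeks, a switch that shortens the synaptic current, while GluN3A is known for a peak in early post-natal life.

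Depth was similar in the 3 groups. Summed expected counts lay between 18381819 and 26084780 per pup, with a median of 22726306. All 12 excitatory neuron markers of the list used here were detected, and their summed TPM (transcript abundance scaled to length and to the library) lay between 1813 and 4487 per pup. The astrocyte list (1422 to 2433) and the endothelium list (197 to 274) varied less in proportion. Some other lists varied more between pups. The summed TPM of 10 striatal neuron markers ranged from 194 to 1730, with medians of 293 in SAL, 294 in PNO and 627 in IUO, that of 10 myelin markers from 1466 to 11726, and that of 8 choroid plexus markers from 8.69 to 2704. Bulk RNA cannot separate fewer cells of a type from less RNA per cell. The mean transcript length of a library, which is the effective length of each gene weighted by its TPM, ranged from 1420 to 1786 bases. The share of counts from 13 mitochondrial genes ranged from 6.96% to 16.3%. Both measures were looked at after the subunit values had been seen, and they are given below beside the genes they move with.

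Grin1, which encodes the subunit every receptor needs, was the most abundant member. Its level over the 18 pups was 194 ± 26.4 TPM (SD). In SAL pups the lowest, median and highest values were 144, 202 and 229.8 TPM. The PNO pups had 157, 185 and 227 TPM and the IUO pups 166, 192 and 235 TPM. The groups overlapped over most of their range, and the highest pup exceeded the lowest by 1.63-fold.

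Grin2c followed at 26.1 ± 3.91 TPM (SD, n = 18), which was 13.7% ± 2.68 of the Grin1 level in the same pup. GluN2C is known from cerebellar granule cells and, in the forebrain, from astrocytes and some interneurons. Next in order of mean level were Grin3a at 10.7 ± 6.21 TPM, Grin2d at 7.35 ± 2.33 TPM, Grin2a at 5.32 ± 4.67 TPM, Grin2b at 4.22 ± 3.51 TPM and Grin3b at 1.65 ± 0.581 TPM. Grin1 exceeded Grin2c, and Grin2c exceeded Grin3a, in 18 of 18 pups. The middle of the order was not separated beyond the spread between pups. Grin3a was above Grin2d in 14 of 18 pups, Grin2d was above Grin2a in 14 of 18, and Grin2a was above Grin2b in 12 of 18. Grin2b exceeded Grin3b in 17 of 18 pups. These levels are per length of the gene models in the deposited tables. Those models hold 1 transcript each for Grin2a (4259 bases), Grin2b (5261 bases), Grin2c (4669 bases) and Grin3a (3217 bases), so reads from parts of a transcript outside its model were not counted, and how far this sets the order was not tested. Of the summed TPM of the 4 GluN2 genes, Grin2c held 62.5% ± 12.3, Grin2d 17.3% ± 5.11, Grin2a 11.2% ± 7.04 and Grin2b 8.98% ± 4.73 (SD, n = 18).

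**Figure D1:**
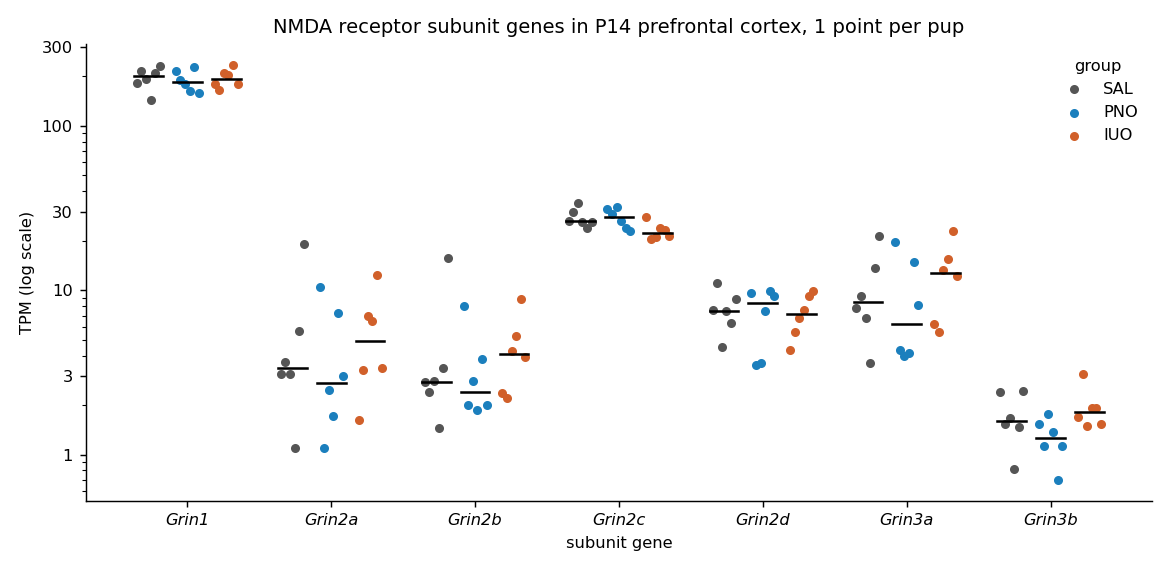
TPM of the 7 subunit genes on a log axis, with 1 point per pup and a black line at the median of each group of 6. Grin1 and Grin2c varied by 1.63-fold and 1.65-fold over all pups, whereas Grin2a varied by 17.6-fold and Grin2b by 10.8-fold, and the groups overlapped for every gene.

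The genes fell apart by how much they varied between pups of the same group. Grin2a, the subunit of the mature receptor, had a lowest, median and highest value of 1.09, 3.37 and 19.16 TPM in SAL, 1.09, 2.73 and 10.4 TPM in PNO, and 1.62, 4.92 and 12.3 TPM in IUO. For Grin2b, the subunit that prevails early, the values were 1.46, 2.78 and 15.7 TPM in SAL, 1.87, 2.41 and 8 TPM in PNO, and 2.21, 4.12 and 8.82 TPM in IUO. Grin3a, a subunit that lowers calcium flow, had 3.61, 8.51 and 21.45 TPM in SAL, 4, 6.25 and 19.6 TPM in PNO, and 5.59, 12.7 and 22.8 TPM in IUO. SAL replicate 6 and PNO replicate 1 were the highest of their group for all 3 genes, and the groups overlapped. Grin2a rested on 63 to 1029 expected counts per pup and Grin2b on 126 to 1045.

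The remaining members varied less. Grin2d, a subunit linked to interneurons, had 4.53, 7.5 and 11.1 TPM in SAL, 3.5, 8.35 and 9.88 TPM in PNO, and 4.31, 7.18 and 9.91 TPM in IUO. Grin3b, the second GluN3 gene and best known from motor neurons, was the least abundant, with 24 to 127 expected counts per pup. Its values were 0.82, 1.61 and 2.42 TPM in SAL, 0.7, 1.26 and 1.76 TPM in PNO, and 1.49, 1.81 and 3.11 TPM in IUO. The groups overlapped for both genes.

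The ratio of Grin2a to Grin2b compares the genes of the subunit switch within each pup, at the RNA level. It needs no scaling between libraries, but it was not free of differences between them. Over the 18 pups it rose with mean transcript length (r = 0.55), as given below. Its level also rests on 1 transcript model for each gene. In SAL pups the TPM ratio was 1.23 ± 0.329 (SD, n = 6), with 0.747, 1.17 and 1.68 as its lowest, median and highest values. PNO pups had a mean of 1.17 ± 0.486, with 0.545, 1.11 and 1.89, and IUO pups 1.21 ± 0.370, with 0.681, 1.31 and 1.63. The ratio was above 1 in 5 of 6 SAL, 3 of 6 PNO and 4 of 6 IUO pups, and the groups overlapped almost fully. A two-sided exact permutation test of the mean log2 ratio gave p = 0.665 between PNO and SAL (difference -0.14), p = 0.879 between IUO and SAL (difference -0.04) and p = 0.786 between IUO and PNO (difference 0.09). None of the 15 tests on subunit ratios passed after Benjamini-Hochberg adjustment. The smallest adjusted exact p was 0.877. The smallest unadjusted one, 0.119, was that of summed Grin2 to Grin1 TPM, which was 0.205 ± 0.0156 in IUO and 0.234 ± 0.0397 in SAL (n = 6 each).

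**Figure D2:**
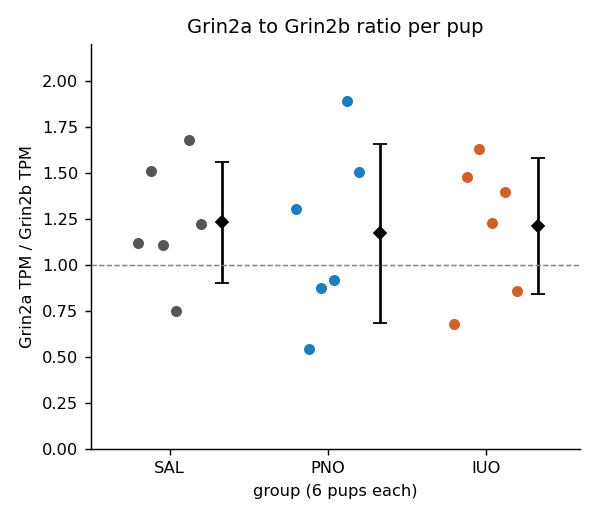
Grin2a TPM divided by Grin2b TPM in each pup, with the mean and SD of 6 pups per group as a diamond with bars and a dashed line at a ratio of 1. The means of 1.23 in SAL, 1.17 in PNO and 1.21 in IUO lie within the spread of every group.

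The ratio was also set against the mean log2 CPM of 11 lists of markers for cell types and neighbouring tissues. No list passed over the 18 pups. Myelin had the largest r, with Pearson's r = -0.29 and Spearman's rho = -0.27 (permutation p = 0.246 and 0.281, Benjamini-Hochberg adjusted p = 0.738 and 0.656). Without the 2 pups farthest from the median of the myelin level r was -0.39, and within SAL, PNO and IUO it was -0.32, -0.26 and -0.43. The excitatory neuron list had r = 0.22 (permutation p = 0.370, adjusted p = 0.738) and rho = 0.28 (permutation p = 0.260), and the choroid plexus list r = -0.27 and rho = -0.41 (permutation p = 0.285 and 0.0876).

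Changes between groups were tested with edgeR on all 15703 genes, and a call needed an adjusted p under 0.05 together with at least a 1.5-fold change. Between PNO and SAL none of the 7 members was called, where 0% of all genes were. None of the 7 reached an unadjusted p under 0.05 either, with edgeR, DESeq2 or limma-voom, against 4.5%, 5.07% and 6.69% of all genes with these tools. The log2 fold changes were -0.37 for Grin2a (SE 0.58), -0.35 for Grin2b (SE 0.47), -0.30 for Grin3b (SE 0.25), -0.12 for Grin3a (SE 0.41), -0.04 for Grin2d (SE 0.25), 0.04 for Grin1 (SE 0.08) and 0.08 for Grin2c (SE 0.12), so that 2 of 7 members had a positive value beside 50.8% of all genes. Their precision differed widely. The 95% interval of the fold change ran from 0.913 to 1.15 for Grin1 but from 0.333 to 1.81 for Grin2a and from 0.397 to 1.56 for Grin2b, so a change of the Grin2a or Grin2b level by as much as 1.5-fold was not detectable in these pups. Leaving out a single pup turned the sign of 5 members. Without SAL replicate 6 the log2 fold change was 0.34 for Grin2a, 0.40 for Grin2b and 0.13 for Grin3a, and that of Grin3a was also positive without PNO replicate 2 (0.00034), 3 (0.014) or 4 (0.010). Grin2d was positive without SAL replicate 2 (0.097) or 4 (0.013) or PNO replicate 2 (0.080) or 3 (0.079), and Grin1 was negative without PNO replicate 2 (-0.0033).

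Between IUO and SAL, 0 of 7 members were called, beside 0% of all genes. Grin2c alone had an unadjusted p under 0.05 with edgeR, as had 6.88% of all genes. Its TPM values in IUO were 20.6, 22.4 and 28.0 (lowest, median and highest) and in SAL 23.9, 26.3 and 34. The 2 ranges overlapped, with the median of IUO below the lowest SAL pup, and the log2 fold change was -0.28 (SE 0.12, adjusted p = 0.701 with edgeR). For Grin1, Grin2a and Grin2b the log2 fold changes were -0.0031, 0.0056 and -0.0021. The 95% interval of the fold change ran from 0.889 to 1.12 for Grin1, from 0.433 to 2.33 for Grin2a and from 0.506 to 1.97 for Grin2b. Grin2d differed by -0.09 (SE 0.25), Grin3b by 0.21 (SE 0.25) and Grin3a by 0.31 (SE 0.41) on the log2 scale, and 3 of 7 members had a positive value beside 48% of all genes. Without SAL replicate 6 the log2 fold change was 0.71 for Grin2a and 0.74 for Grin2b. With 1 pup left out in turn it ranged from 0.082 to 0.56 for Grin3a and from 0.0010 to 0.32 for Grin3b. DESeq2 and limma-voom called no member here. At an unadjusted p under 0.05 were 1 member with DESeq2, beside 7.59% of all genes, and 2 with limma-voom, beside 17.3%, Grin2c among them in both. The other member with limma-voom was Grin2b, which was higher in IUO with that tool, unlike with edgeR.

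Between IUO and PNO, 0 of 7 members were called, beside 0.0446% of all genes. Grin2c was again the member with the smallest p. Its PNO values were 22.8, 27.8 and 31.95 TPM against the 20.6, 22.4 and 28.0 TPM of IUO, so the groups overlapped. The log2 fold change was -0.35 (SE 0.12, adjusted p = 0.193 with edgeR), a fold change of 0.782 with a 95% interval from 0.653 to 0.937. At an unadjusted p under 0.05 it was the only one of 7 members with edgeR, where 15.3% of all genes were. DESeq2 put 2 members under that limit, beside 16.4% of all genes, and limma-voom 3 members, beside 34%. Limma-voom with sample quality weights gave Grin2c an adjusted p of 0.0405 at a log2 fold change of -0.35, where the other alternatives gave 0.0925 to 0.495, and this change is under the 1.5-fold needed for a call. In that fit 12.9% of all genes had an adjusted p under 0.05. The summed TPM of 10 astrocyte markers lay between 1502 and 1785 in IUO, between 1671 and 2433 in PNO and between 1422 and 2064 in SAL. That of 10 myelin markers lay between 1736 and 3991 in IUO, between 2249 and 11726 in PNO and between 1466 and 5726 in SAL. That of 10 striatal neuron markers lay between 394 and 1730 in IUO, between 194 and 1054 in PNO and between 199 and 1570 in SAL, and that of the 4 blood markers found of 8 between 2522 and 17597 in IUO, between 939 and 4879 in PNO and between 1231 and 4675 in SAL. None of the markers found was at 0 in all pups, and the part of any of them in the Grin2c values was not tested. Grin3b differed by 0.51 (SE 0.25, adjusted p = 0.343 with edgeR) in the other direction, and by 0.30 to 0.66 with 1 pup left out. The log2 fold changes of Grin3a, Grin2a and Grin2b were 0.43 (SE 0.41), 0.37 (SE 0.58) and 0.34 (SE 0.47), and those of Grin1 and Grin2d were -0.04 (SE 0.08) and -0.05 (SE 0.25). Single pups weighed heavily on the first 3. Without IUO replicate 5 the log2 fold change was 0.21 for Grin3a, 0.028 for Grin2a and 0.070 for Grin2b, and without PNO replicate 1 it was 0.72, 0.77 and 0.70. Limma-voom gave 0.92, 0.93 and 0.76 for Grin3a, Grin2a and Grin2b, with adjusted p = 0.0727, 0.161 and 0.0970. A positive value was seen in 4 of 7 members and in 49.9% of all genes. PNO and IUO were each compared with the same SAL pups, so the 3 comparisons are not independent of each other. Over all 21 tests of a member in a comparison, 0 had groups that did not overlap in TPM, as 0.0892%, 0.509% and 1.46% of all genes had between PNO and SAL, IUO and SAL, and IUO and PNO.

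**Figure D3:**
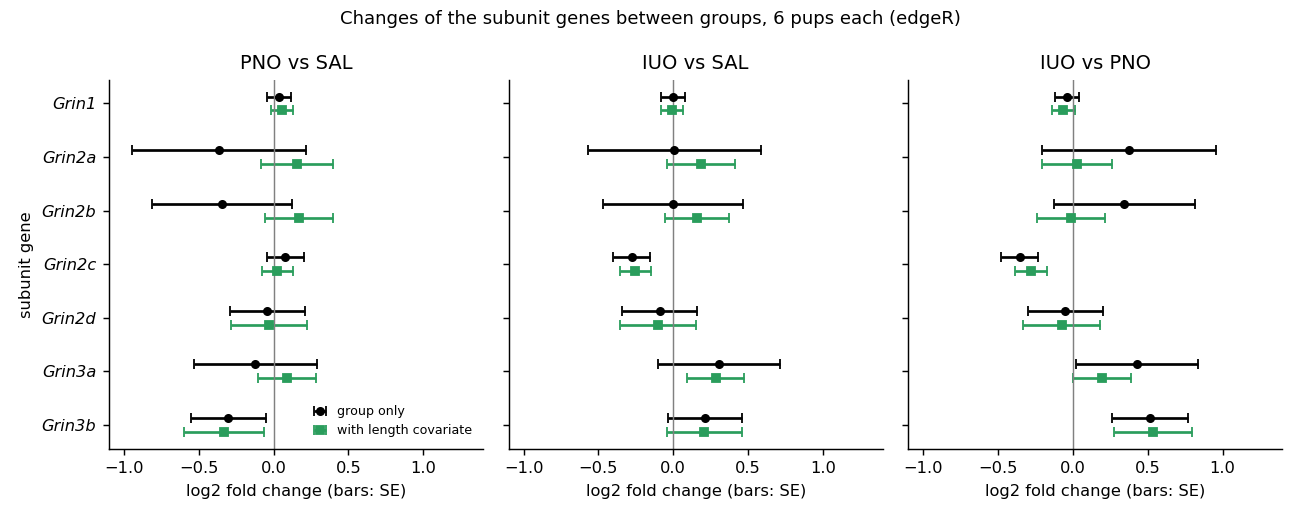
Log2 fold changes of the 7 subunit genes in each comparison (points) with the standard error (bars), from the edgeR model with group alone (black) and with the mean transcript length of the library as a covariate (green). For Grin2a the standard error between PNO and SAL is 0.58 without and 0.24 with the covariate, and no gene was called under either.

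Grin2a, Grin2b and Grin3a varied together from pup to pup, in all 3 groups. Pearson's r of log2 CPM over the 18 pups was 0.91 between Grin2a and Grin3a, 0.89 between Grin2a and Grin2b and 0.83 between Grin2b and Grin3a. Within groups these values lay between 0.74 and 0.98. Grin2c went the other way, with r = -0.65 against Grin2a, -0.71 against Grin3a and -0.49 against Grin2b. Against Grin2b it was -0.76 within SAL, -0.13 within PNO and -0.45 within IUO. For Grin1, r with Grin2a, Grin2b and Grin3a was between 0.30 and 0.34 over all pups, between 0.19 and 0.62 within SAL, between -0.16 and 0.15 within PNO and between 0.80 and 0.87 within IUO. For Grin3b it was between -0.10 and 0.14 over all pups, between 0.55 and 0.61 within SAL, between -0.63 and -0.10 within PNO and between -0.58 and -0.19 within IUO. Values of the same pup share a library, so these are descriptions.

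The same 3 genes followed the mean transcript length of the library. For Grin2a r was 0.91 (rho 0.89), for Grin3a 0.89 (rho 0.94) and for Grin2b 0.87 (rho 0.83). The permutation p of each r was 1e-05, the smallest that 100000 resamples can give, and 5.33e-05 after adjustment over 16 relations, and that of each rho was at most 2e-05. Without the 2 pups farthest from the median length r was 0.85, 0.88 and 0.80 for Grin2a, Grin3a and Grin2b. Within each group of 6 pups the lowest r of the 3 genes was 0.73 and the highest 0.98. Grin2c had r = -0.56 (rho -0.58, permutation p = 0.0156, adjusted p = 0.0357), r = -0.48 without those 2 pups, and -0.73, -0.62 and -0.13 within SAL, PNO and IUO. No relation passed for Grin1 (r = 0.30, rho = 0.39), Grin2d (r = 0.20, rho = 0.14) or Grin3b (r = 0.05, rho = 0.15). Within SAL, PNO and IUO, r with mean transcript length was 0.41, 0.02 and 0.86 for Grin1, -0.20, 0.52 and 0.19 for Grin2d and 0.72, -0.57 and -0.40 for Grin3b. Among the IUO pups r of Grin1 with the mitochondrial share was -0.80. Each value within a group rests on 6 pups, and the differences between groups were not tested. The share of mitochondrial counts moved with the same 3 genes in the opposite direction, with r = -0.82 for Grin2a, -0.82 for Grin2b and -0.83 for Grin3a (permutation p = 4e-05, 2e-05 and 4e-05), and rho = -0.78, -0.86 and -0.86 (permutation p = 0.0002, 3e-05 and 4e-05). Without the 2 pups farthest from the median share r was -0.77, -0.78 and -0.79, and within groups it lay between -0.71 and -0.92. The mean transcript length is weighted by the TPM of all genes, the mitochondrial ones among them, so the measures are linked. SAL replicate 4 had both the shortest length (1420 bases) and the highest share (16.3%). The tests on the share are therefore not separate from those on the length.

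**Figure D4:**
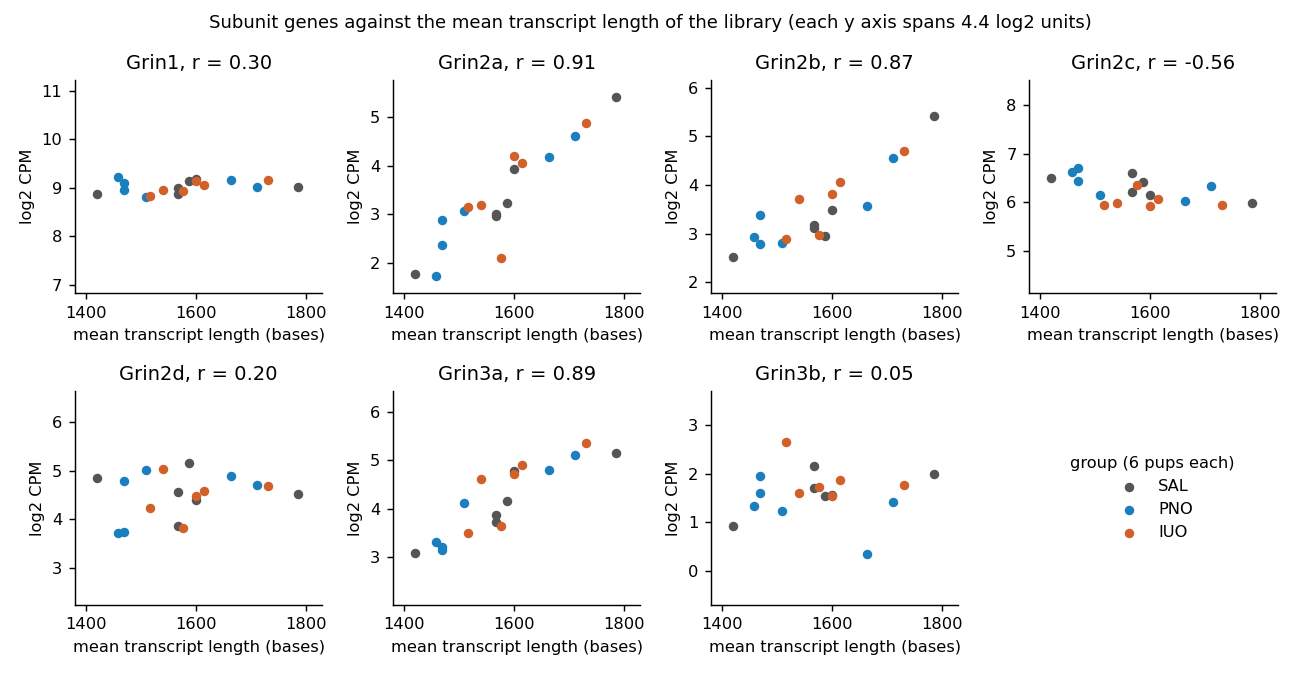
Log2 CPM of each subunit gene against the mean transcript length of the library in bases, 1 point per pup, coloured by group, with Pearson's r over 18 pups above each panel. Every vertical axis spans the same number of log2 units, so the steep panels of Grin2a, Grin2b and Grin3a and the flat panel of Grin1 can be compared directly.

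Such a relation was common among all genes. Of the 15703 genes tested 10.5% had r above 0.8 with mean transcript length, and among the 1600 genes with models of 4000 to 5500 bases the share was 14.2%. The 3 members were at the upper end of the distribution, with 97.0% of all genes below Grin2a, 95.5% below Grin3a and 93.8% below Grin2b. Grin2c was near the lower end, above 19.9% of all genes and above 3% of the genes of 4000 to 5500 bases, although its own model is in that length range. Grin1, with models of about the same length, was above 66.8% of all genes and above 47.8% of those of 4000 to 5500 bases. The Grin2a to Grin2b ratio itself rose with mean transcript length (r = 0.55, rho = 0.56, permutation p = 0.0182 and 0.0170, adjusted p = 0.0364 and 0.0340), and r was 0.56 without the 2 pups farthest from the median and 0.57, 0.70 and 0.27 within SAL, PNO and IUO.

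**Figure D5:**
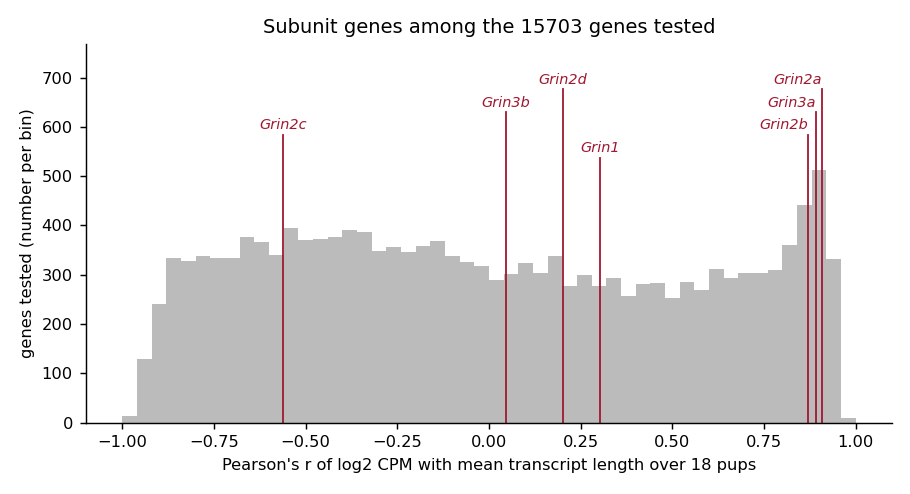
Number of genes at each Pearson's r of log2 CPM with mean transcript length over 18 pups, for the 15703 genes tested (grey), with the 7 subunit genes marked by red lines. Grin2a, Grin3a and Grin2b stand in the peak at the right and Grin2c on the left side.

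Mean transcript length overlapped between the groups, with 1420 to 1786 bases in SAL (median 1577), 1459 to 1712 in PNO (median 1489) and 1517 to 1730 in IUO (median 1589). It was lower in most PNO pups, with 4 of 6 at or below 1509 bases against 1 of 6 SAL and 0 of 6 IUO pups, and this difference was not tested. Adding it to the edgeR model as a covariate, an alternative chosen after seeing the data, lowered the standard error between PNO and SAL from 0.58 to 0.24 for Grin2a, from 0.47 to 0.23 for Grin2b and from 0.41 to 0.19 for Grin3a. The log2 fold changes then were 0.16, 0.17 and 0.09 for Grin2a, Grin2b and Grin3a between PNO and SAL. They were 0.19, 0.16 and 0.28 for IUO against SAL and 0.03, -0.01 and 0.19 for IUO against PNO, and all 9 adjusted p-values of edgeR were at least 0.616. Grin2c differed by -0.25 between IUO and SAL (SE 0.10, adjusted p = 0.366) and by -0.28 between IUO and PNO (SE 0.11, adjusted p = 0.186) in this model. What sets the mean transcript length of a library was not tested.

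The genes most like each member over the 18 pups, by Pearson's r of log2 CPM among 14362 genes with a mean of at least 1 CPM, differed between members. Grin2a was closest to Nr2c2, a nuclear receptor gene (r = 0.97), LOC100362814 (r = 0.97) and Ralgapb (r = 0.97), and 560 genes had r above 0.9 with it. Grin3a was closest to Pip4k2b (r = 0.97), Pcyox1 (r = 0.97) and Cmip (r = 0.97), with 445 genes above 0.9, and Grin2b to Supt6h (r = 0.96), Slitrk2 (r = 0.96) and Polr2a (r = 0.95), with 108. Grin1 had no gene above 0.9, and its nearest were Slc30a3, the zinc transporter of glutamatergic vesicles (r = 0.90), Tgfb3 (r = 0.88) and Eef1a2 (r = 0.88). Grin2c was nearest to the near-identical histone genes Hist2h2aa2 and Hist2h2aa3, which share reads and are uncertain (r = 0.94 for both), and to C1qtnf5 (r = 0.93). Grin2d had Lrrc75b (r = 0.88), Samd14 (r = 0.87) and Ppfia4 (r = 0.87), and Grin3b had Adamts6 (r = 0.82), Mcm7 (r = 0.80) and Tbc1d10c (r = 0.79).

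Promoter windows from RefSeq (build GRCr8, 250 bases before to 50 after the start of the gene) were matched by symbol for 4 of 7 members, namely Grin1, Grin2c, Grin2d and Grin3a. Those of Grin1, Grin2c and Grin3a are shown because Grin1 had the narrowest range over all pups, Grin2c fell with mean transcript length and Grin3a rose with it. All 3 lie on the minus strand, at chr3:28528705-28529004 (Grin1), chr10:101005089-101005388 (Grin2c) and chr5:69001509-69001808 (Grin3a), and are written 5′ to 3′ with the GC box GGGCGG in capitals:
Grin1: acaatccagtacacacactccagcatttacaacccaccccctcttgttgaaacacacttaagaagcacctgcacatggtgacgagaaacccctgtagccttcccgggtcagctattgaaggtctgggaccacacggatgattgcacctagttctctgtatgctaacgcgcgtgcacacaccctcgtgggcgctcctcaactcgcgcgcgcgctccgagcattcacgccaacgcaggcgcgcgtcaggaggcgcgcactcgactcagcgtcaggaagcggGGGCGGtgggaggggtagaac
Grin2c: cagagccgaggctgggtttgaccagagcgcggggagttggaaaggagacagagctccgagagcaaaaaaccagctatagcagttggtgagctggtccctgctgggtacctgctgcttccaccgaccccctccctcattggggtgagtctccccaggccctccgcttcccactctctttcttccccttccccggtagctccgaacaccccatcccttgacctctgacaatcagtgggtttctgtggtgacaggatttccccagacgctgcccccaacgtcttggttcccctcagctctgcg
Grin3a: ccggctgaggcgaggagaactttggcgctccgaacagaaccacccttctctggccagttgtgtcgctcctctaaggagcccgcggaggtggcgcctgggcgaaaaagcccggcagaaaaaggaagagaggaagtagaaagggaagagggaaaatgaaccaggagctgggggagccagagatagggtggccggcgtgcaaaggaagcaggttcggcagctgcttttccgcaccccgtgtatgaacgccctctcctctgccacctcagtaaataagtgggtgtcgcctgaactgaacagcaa
GGGCGG was searched on both strands, and was found 1 time in Grin1 and not in Grin2c, Grin2d or Grin3a. It is in 33.1% of all 33469 promoter windows of this length. The TATA box TATAAA (14.2% of windows) and the cAMP response element TGACGTCA (1.83%), searched in the same way with no overlap with GGGCGG, had no match in the 4 windows. GC content was 59.7% in Grin1, 60.3% in Grin2c, 60.7% in Grin2d and 58.7% in Grin3a, against a median of 51.7% over all windows. A match is a description of these letters only.

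Genes around the receptor were taken from 7 lists with 86 distinct genes tested. None was called in any comparison. With edgeR at an unadjusted p under 0.05, 0 were higher and 1 was lower between PNO and SAL, beside 1.89% and 2.6% of all genes. Between IUO and SAL 1 was higher and 2 were lower, beside 3.02% and 3.87% of all genes, and in IUO against PNO 3 were higher and 4 lower, beside 6.14% and 9.14%. As shares of the 86 genes these counts come to 1.16%, 3.49% and 8.14%, below the 4.5%, 6.88% and 15.3% of all genes. Their median log2 fold change was -0.07, 0.02 and 0.11 in the 3 comparisons, beside medians of 0.00, -0.01 and -0.00 over all genes. Of the 86 genes 27 had r above 0.8 with mean transcript length.

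The co-agonist list holds 13 tested genes for glycine and D-serine. Phgdh, the first enzyme of serine synthesis and an astrocyte gene in brain, had 58.9, 68.6 and 76.6 TPM in IUO (lowest, median and highest), 60.1, 84.0 and 115 TPM in SAL and 65.5, 79.5 and 96.4 TPM in PNO. The groups overlapped, with log2 fold changes of -0.33 between IUO and SAL (SE 0.11, adjusted p = 0.530 with edgeR) and -0.31 between IUO and PNO (SE 0.11, adjusted p = 0.219 with edgeR). Slc6a5, a neuronal glycine transporter at about 1 TPM, differed by -1.49 (SE 0.58) between IUO and PNO, with 0.28 to 3.82 TPM in PNO (median 1.8) and 0.48 to 0.93 TPM in IUO (median 0.775). Without PNO replicate 4 the difference was -1.14 and not under an unadjusted p of 0.05. Shmt1, which interconverts serine and glycine, differed by 0.39 (SE 0.17) between IUO and SAL, and Slc1a5, a neutral amino acid carrier, by 0.47 (SE 0.21) between IUO and PNO. In the list for glutamate uptake and loading (10 tested), Gls2, a glutaminase, had 7.75, 10.8 and 12.5 TPM in IUO and 11.2, 14.1 and 15.9 TPM in PNO, and its log2 fold change of -0.48 (SE 0.15, adjusted p = 0.164 with edgeR) had the smallest adjusted p of the 86 genes over the 3 comparisons.

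Effectors downstream of the channel (14 tested) showed Ppp3ca, the catalytic subunit of calcineurin, at 0.34 (SE 0.16) on the log2 scale between IUO and PNO, at an unadjusted p under 0.05 with edgeR. Among regulators linked to the subunit switch (15 tested), 14 had a negative log2 fold change between PNO and SAL, with a median of -0.18. One of them, Wnt5a, a signalling ligand, reached an unadjusted p under 0.05 at -0.90 (SE 0.34), with 2.06, 2.96 and 14.4 TPM in SAL (lowest, median and highest) and 1.5, 2.25 and 3.63 TPM in PNO. The highest value was that of SAL replicate 6. Without this pup, left out after the values were seen, the log2 fold change was -0.32 and the unadjusted p was no longer under 0.05. Rcor1, a corepressor that binds REST, differed by -0.19 (SE 0.08) between IUO and SAL, and Dnmt1, the maintenance DNA methyltransferase, by 0.30 (SE 0.12) between IUO and PNO. With each of the 12 pups compared left out in turn, an alternative chosen after seeing the data, Phgdh (both comparisons with IUO) and Gls2 (IUO against PNO) had an unadjusted p under 0.05 in 12 of 12 fits with edgeR. Wnt5a (PNO against SAL) and Slc6a5 (IUO against PNO) had it in 11 of 12 each. Rcor1 had it in 10, Dnmt1 in 9, Shmt1 in 6, Ppp3ca in 4 and Slc1a5 in 3 of 12. The 14 scaffold genes, which anchor the receptor at the synapse, had 12 members with a negative log2 fold change between PNO and SAL and 13 with a positive one between IUO and PNO, with medians of -0.08 and 0.21, and no scaffold gene reached an unadjusted p under 0.05 in any comparison. The smallest p of a scaffold gene in the 3 comparisons belonged to Homer1 (-0.30, SE 0.22), Dlg1 (-0.13, SE 0.07) and Dlgap4 (0.24, SE 0.12). In the phosphorylation list (10 tested) it belonged to Csnk2b (0.17, SE 0.12) and, in both IUO comparisons, to Cdk5r1 (0.38, SE 0.33 and 0.59, SE 0.34), and in the transport list (11 tested) to Nsf (0.29, SE 0.17), Ap2m1 (0.14, SE 0.08) and Exoc4 (0.40, SE 0.22). Exoc4 and Cdk5r1 followed mean transcript length with r = 0.94 and r = 0.91, and Homer1 with r = 0.85.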

How the data were processed

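RNA from the PFC of 18 pups (6 SAL, 6 PNO and 6 IUO, grouped by the sample titles) was measured as 1 library per pup. The authors deposited expected counts, which share out reads that match several genes, together with TPM, FPKM, length and effective length per gene. The aligner, annotation and genome build are not given in the sources used here. TPM and FPKM were deposited by the authors scaled to length and library.

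After rounding, expected counts went into edgeR 4.0.16 (R 4.3.3) with TMM and filterByExpr (quasi-likelihood test, 1 model of 3 groups, two-sided, Benjamini-Hochberg over 15703 genes). A call needed an adjusted p under 0.05 and at least 1.5-fold. Log2 CPM used a prior count of 2. Ratios of TPM had no pseudocount and were compared by exact permutation tests, and correlations by 100000 permutations (scipy 1.17.1). DESeq2 1.42.0, limma 3.58.1 (voom), other scalings and filters, a replicate block and each pup left out were alternatives. The code was tested on simulated data. No 2 pups had identical values.

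The members and lists were chosen with earlier results of these data known. Named are the 7 members; in each list of receptor-associated genes up to 4 genes per comparison at an unadjusted p under 0.05, or else the gene with the smallest p; and the 3 genes most like each member. The result of 1 gene that this rule names is not reported here. Depth of 18381819 to 26084780 expected counts per pup limits Grin3b most, at 24 to 127 counts.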

Additional observations from a re-analysis of the deposited data

Results flagged for a closer look

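In the TPM values of the members and the subunit ratios, 4 of the 36 groups of 6 pups held a pup far from the others by Dixon's criterion, which chance meets in about 1 of 20 groups. For Grin2a, SAL replicate 6 had 19.16 TPM, with the next SAL pup at 5.66 TPM. The same pup had 15.7 TPM of Grin2b, with the next SAL pup at 3.37 TPM, and its mean transcript length of 1786 bases was the longest of the 18 libraries. For Grin2b, PNO replicate 1 had 8 TPM, with the next PNO pup at 3.84 TPM, and its mean transcript length of 1712 bases was the longest of the PNO libraries. For Grin3b, IUO replicate 2 had 3.11 TPM, with the next IUO pup at 1.92 TPM, and its mean transcript length of 1517 bases was the shortest of the IUO libraries. The Grin2a to Grin2b ratio of these 3 pups, at 1.22, 1.30 and 1.48, lay inside the range of the others. The part of transcript length in these values was not tested for single pups.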

How the results depend on the processing

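Of 462 alternative fits for the 7 members 405 kept the direction and the side of the threshold, and of 270 for the subunit ratios 250 did. The others changed sign, except that Grin2c between IUO and PNO passed with limma-voom (-0.35, adjusted p = 0.0405). None of the values that changed sign had passed the test. They include Grin2a and Grin2b between PNO and SAL, which went from -0.37 to 0.34 and from -0.35 to 0.40 without SAL replicate 6. Grin2c stayed lower in IUO than in both other groups in every alternative. Genes called numbered 0 in both comparisons with SAL and 7 between IUO and PNO. In the order PNO and SAL, IUO and SAL, IUO and PNO, they numbered 1, 22 and 172 with DESeq2, 0, 17 and 703 with limma-voom, 0, 0 and 50 with only the 12 pups compared, 0, 0 and 0 with no library size normalization, 0, 0 and 5 with the replicate block, and, in alternatives chosen after seeing the data, 0, 1 and 39 with mean transcript length as a covariate and 0, 0 and 4 without the pup of longest mean transcript length in each group. With 1 pup left out they ranged from 0 to 0, from 0 to 1 and from 0 to 58. IUO against SAL had 1 without SAL replicate 2. IUO against PNO had 58 without PNO replicate 5, 13 without PNO replicate 3, 12 without IUO replicate 1 and 0 to 2 without PNO replicate 2, 4 or 6 or IUO replicate 2, 3, 4, 5 or 6. With no library size normalization the log2 fold change was -0.063 for Grin1 and -0.0030 for Grin2c between PNO and SAL, 0.032 for Grin1 and 0.032 for Grin2b between IUO and SAL, and 0.094 for Grin1 and 0.059 for Grin2d between IUO and PNO, with the median of all genes moved to -0.080, 0.020 and 0.11 in these comparisons. Limma-voom gave Grin1 -0.020 (PNO against SAL) and 0.016 (IUO against PNO), and Grin2b 0.68 (IUO against SAL). Grin2a between IUO and SAL was -0.0047 with DESeq2 size factors, -0.0059 with DESeq2, -0.0087 with no filter, -0.0060 with the stricter filter and -0.0039 with the 12 pups compared. The length covariate gave 0.16, 0.17 and 0.089 for Grin2a, Grin2b and Grin3a (PNO against SAL), and for Grin2b 0.16 (IUO against SAL) and -0.012 (IUO against PNO). Without the 3 pups of longest mean transcript length Grin2b was 0.039 (PNO against SAL) and 0.48 (IUO against SAL), and the log2 ratios to Grin2b between PNO and SAL were -0.027 for Grin2c and -0.17 for Grin2d. With medians in place of means the log2 ratio of Grin2a to Grin2b was 0.16 (IUO against SAL), that of Grin2d to Grin2b -0.093 and that of summed Grin2 to Grin1 0.026 (both PNO against SAL). With 1 pup left out, the log2 fold change between PNO and SAL ranged from -0.0033 to 0.077 for Grin1, -0.78 to 0.34 for Grin2a, -0.71 to 0.40 for Grin2b, -0.15 to 0.10 for Grin2d and -0.42 to 0.13 for Grin3a. Between IUO and SAL it ranged from -0.040 to 0.030 for Grin1, -0.34 to 0.71 for Grin2a, -0.28 to 0.74 for Grin2b and -0.22 to 0.047 for Grin2d, and between IUO and PNO from -0.080 to 0.00022 for Grin1, -0.18 to 0.057 for Grin2d, 0.028 to 0.77 for Grin2a, 0.070 to 0.70 for Grin2b and 0.21 to 0.72 for Grin3a. The log2 ratio of Grin2a to Grin2b then ranged from -0.30 to 0.061, -0.18 to 0.11 and -0.10 to 0.25 in the 3 comparisons, and between PNO and SAL that of Grin2c to Grin2b from -0.28 to 0.43, Grin2d to Grin2b from -0.36 to 0.28 and summed Grin2 to Grin1 from -0.12 to 0.026. The correlation of the Grin2a to Grin2b ratio with marker lists changed sign within SAL for microglia (r = 0.036), endothelium (0.61) and thalamus (-0.27), within PNO for interneurons (-0.48), oligodendrocyte precursors (0.35), microglia (0.11) and blood (0.053), within IUO for excitatory neurons (-0.027) and thalamus (-0.25), and for blood without the 2 pups farthest from the median (0.011). With mean transcript length r changed sign for Grin2d within SAL (-0.20) and for Grin3b within PNO (-0.57), within IUO (-0.40) and without the 2 farthest pups (-0.26). With the mitochondrial share r did so for Grin2d within SAL (0.31) and for Grin3b within PNO (0.55), within IUO (0.48) and without the 2 farthest pups (0.18). The cause of these shifts was not tested. The replicate numbers of the titles do not pair the pups, since deviations of same-numbered pups correlated by 0.23, -0.03 and 0.06 on average and 2, 0 and 2 of 6 pups were closest to their own number. With the replicate block Grin2b between IUO and SAL was 0.23 and no member was called. Grin3b, at 24 to 127 counts a pup, is the member most limited by depth.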
